A study of Homo sapiens with 14 samples.

Results

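The CCN genes encode a family of secreted matricellular proteins, and 5 of them are described here: CCN1 (older symbol CYR61), CCN2 (CTGF), CCN3 (NOV), CCN4 (WISP1) and CCN5 (WISP2). They were chosen by name from a table of RNA log ratios with 14532 named genes, in which CCN4 had 3 probes and each of the others had 1 probe, 7 of 27648 probes in all. The RNA came from LNCaP, an established androgen-responsive line of human prostate cancer cells. Cells were kept for 36 h in complete medium and for 48 h without steroids, and then received for 24 h either 25 µg/ml cycloheximide (CHX, a drug that blocks protein synthesis on ribosomes) together with 1 nM R1881 (a synthetic androgen), CHX alone, R1881 alone, or nothing further (control). The control was steroid-deprived like the treated cells, and every group is the same cell line. Each treatment was set against control on 4 arrays with 2 dyes, 2 culture experiments in both dye orientations, and CHX plus R1881 was also set against CHX directly on 2 arrays, both orientations of 1 replicate, which the labels number 1.

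CCN proteins are built from modules that resemble parts of insulin-like growth factor binding proteins, von Willebrand factor and thrombospondin, mostly with a cysteine knot at the C-terminus, which CCN5 lacks. They lie in the extracellular matrix, where they bind integrins, proteoglycans and growth factors and thereby affect adhesion, migration and survival. CCN1 and CCN2 are textbook immediate-early genes: their transcription starts within minutes of serum, growth factors, TGF-beta or mechanical load, through SRF with its cofactors of the MRTF family and through YAP and TAZ bound to TEAD factors, and their transcripts are short-lived.

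A value is a log2 ratio of the first-named RNA over the second. The 2 arrays of a dye swap hold the same RNA extracts and were averaged, which leaves n = 2 experiments, and a value after ± is the SD between them. Calls were made in limma where the p, adjusted by Benjamini and Hochberg over all 14532 genes, was under 0.05. The labels do not state which RNA is the numerator, and the sign was set so that androgen-induced genes were above 0 with R1881 (28 of 33 below 0 as deposited, median −0.21), so that every direction given is likely and not certain. No label gives the base of the logarithm, which was taken as 2. The table holds ratios without intensities, so neither the level of any CCN transcript in these cells nor the presence of LNCaP markers could be read from it. A probe near background also gives a ratio near 0, which cannot be told apart from an unaltered transcript. With fewer cells or less RNA per cell, a ratio in bulk RNA would look the same.

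The results turn on 3 genes that rose, of which CCN2 is the one with a RefSeq upstream sequence that is printed here. The 250 bases before its start (GRCh38.p14, chr6:131951373-131951622, minus strand, from RefSeq) are given because they hold the motif most often cited for its control by TEAD factors. Capitals mark GGAATG, the core of that motif, searched on both strands.

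CCN2 upstream: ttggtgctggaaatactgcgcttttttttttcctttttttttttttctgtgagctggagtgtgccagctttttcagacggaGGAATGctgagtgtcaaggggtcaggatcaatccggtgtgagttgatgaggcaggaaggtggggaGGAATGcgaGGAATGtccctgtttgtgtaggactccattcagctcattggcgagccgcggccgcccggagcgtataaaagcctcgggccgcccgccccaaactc

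GGAATG stood there 3 times, each on the gene's own strand, starting 169, 104 and 95 bases before the start, and no 2 of them overlapped. At least 1 copy was found in 11.9% of 35116 upstream sequences of that length, and at least 3 copies in 0.0826%. The cut of 3 is the count of CCN2 itself, and the motif was chosen for this gene, so the second share tests nothing. The sequence TATAAA, bound by the TATA-binding protein, began 32 bases before the start (10.7% of all sequences held it on either strand). The CArG box, the element bound by SRF, was not among these 250 bases and was present in 1.16% of the sequences. These are matches of letters and no measurement of binding.

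With CHX, alone or with R1881, CCN1, CCN2 and CCN3 rose between 4.20-fold and 9.81-fold, while CCN4 and CCN5 were not called. In both comparisons 3 of the 5 genes were called, all of them higher. Of all genes, 37.5% were called with CHX plus R1881 (20.8% higher and 16.6% lower) and 38% with CHX (20.5% higher and 17.5% lower). A rise of at least 2-fold was reached by the same 3 genes and by 5.75% and 5.46% of all genes.

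CCN1, which supports adhesion through integrins, had log2 ratios of 2.65 and 3.41 in experiment 1 and of 2.28 and 3.12 in experiment 2 on the arrays of CHX plus R1881 (treated RNA in Cy3, then in Cy5). On the arrays of CHX it had 3.51 and 3.0 in experiment 1 and 2.46 and 2.79 in experiment 2. All 8 values were far above the 4 from R1881 alone, which lay between −0.05 and 0.07. CCN1 thus rose by 2.86 ± 0.24 with CHX plus R1881 (7.28-fold, 95% interval 5.53 to 9.60, limma adjusted p = 2.07e-04) and by 2.94 ± 0.45 with CHX (7.68-fold, 5.82 to 10.1, adjusted p = 1.97e-04). Only 19 genes had a higher value than CCN1 with CHX.

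CCN2, a growth factor-like protein known from fibrosis, had 3.51 and 3.72 in experiment 1 and 2.47 and 3.48 in experiment 2 on the arrays of CHX plus R1881. On those of CHX alone the values were 3.87 and 3.66 in experiment 1 and 2.59 and 2.78 in experiment 2. Averaged over the orientations, experiment 1 was higher than experiment 2 under both treatments. With CHX the orientations of an experiment lay closer together than the experiments did, whereas with CHX plus R1881 those of experiment 2 lay farther apart than the experiments. The rise was 3.29 ± 0.45 with CHX plus R1881 (9.81-fold, 95% interval 6.13 to 15.7, limma adjusted p = 5.65e-04) and 3.23 ± 0.76 with CHX (9.36-fold, 5.85 to 15, adjusted p = 5.96e-04). Interval and p use a spread pooled over all treatments, including R1881 alone, where the SD of CCN2 was 0.06. In limma that pooled spread is also drawn toward the spread of other genes. Interval and p are thus tighter than the SD of 0.76 with CHX would give by itself. CCN1 has the same limit with CHX, at an SD of 0.45 against 0.0 with R1881 alone. In the order of all genes CCN2 stood 12th with CHX plus R1881 and 14th with CHX.

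CCN3, which restrains growth in several cell types and can bind NOTCH1, had 2.98 and 2.26 in experiment 1 and 2.59 and 2.43 in experiment 2 with CHX plus R1881. With CHX alone it had 1.95 and 2.31 in experiment 1 and 2.60 and 1.41 in experiment 2. The orientations of experiment 2 of CHX lay farther apart than the averages of the experiments did, at 2.13 and 2.01. CCN3 rose by 2.56 ± 0.08 with CHX plus R1881 (5.91-fold, 95% interval 5.26 to 6.65, limma adjusted p = 6.79e-05) and by 2.07 ± 0.09 with CHX (4.20-fold, 3.73 to 4.72, adjusted p = 7.48e-05). Its SD and interval come from swap averages and do not contain that spread between orientations.

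**Figure D1:**
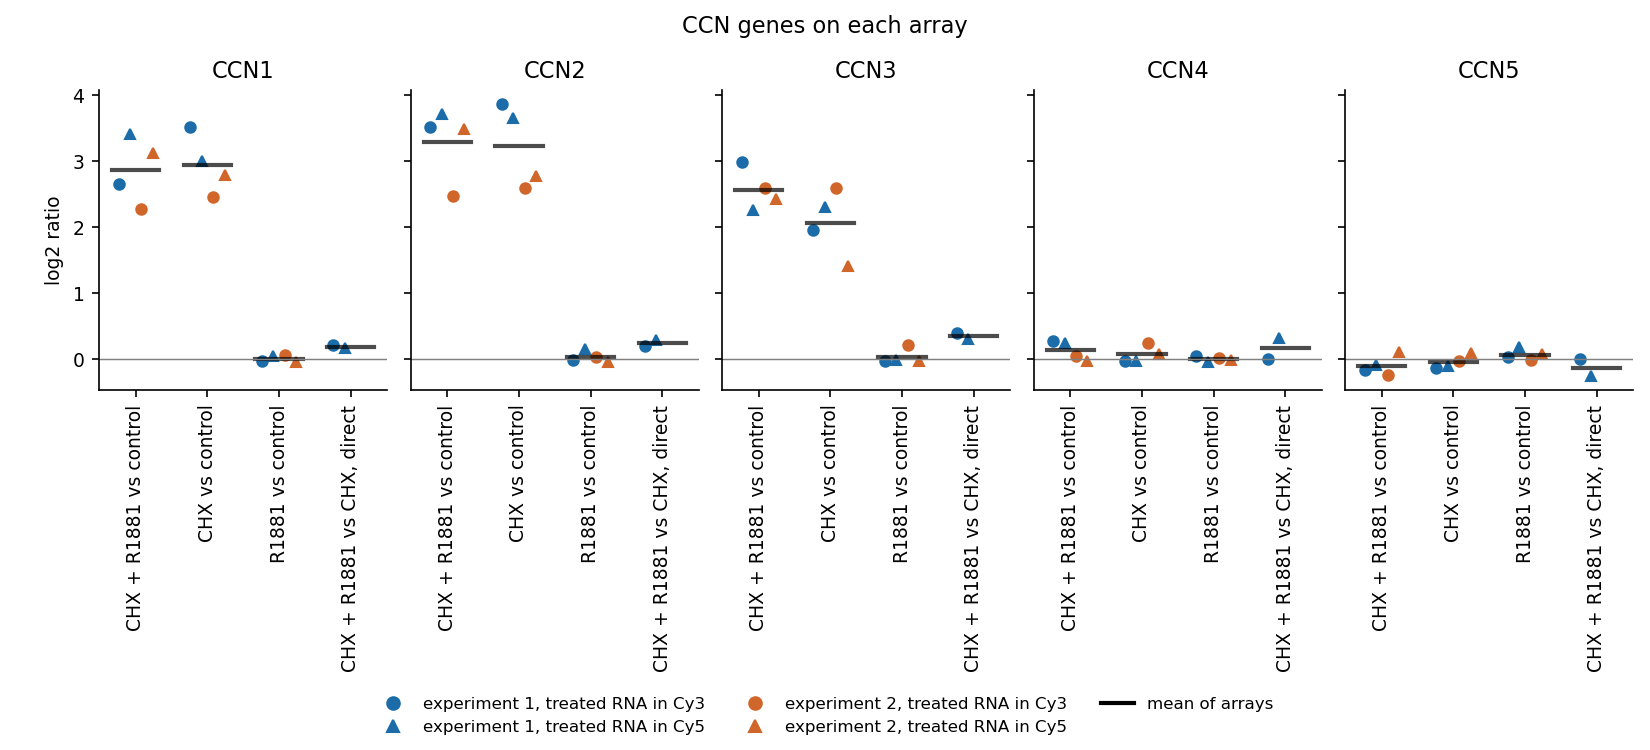
Log2 ratio (vertical axis) of the 5 CCN genes on each of the 14 arrays, by comparison (horizontal axis); colour gives the experiment, shape the dye of the treated RNA, and the black line the mean of the arrays. CCN1, CCN2 and CCN3 sit between 1.41 and 3.87 on the 8 arrays that set CHX treatments against control and between −0.05 and 0.22 with R1881, while CCN4 and CCN5 stay between −0.24 and 0.28 on all arrays against control.

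Among the 3 genes the order of the ratios was not the same on every array. CCN2 exceeded CCN1 on 4 of 4 arrays of CHX plus R1881 (mean difference 0.43, from 0.19 to 0.86) and on 3 of 4 arrays of CHX (0.29, from −0.01 to 0.66). CCN1 exceeded CCN3 on 2 of 4 arrays of CHX plus R1881 (0.30, from −0.33 to 1.15) and on 3 of 4 of CHX (0.87, from −0.14 to 1.56). Neither pair thus kept 1 order on all 8 arrays, and the genes were not tested against each other. These are ratios of change and say nothing of which transcript was the more abundant.

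**Figure D2:**
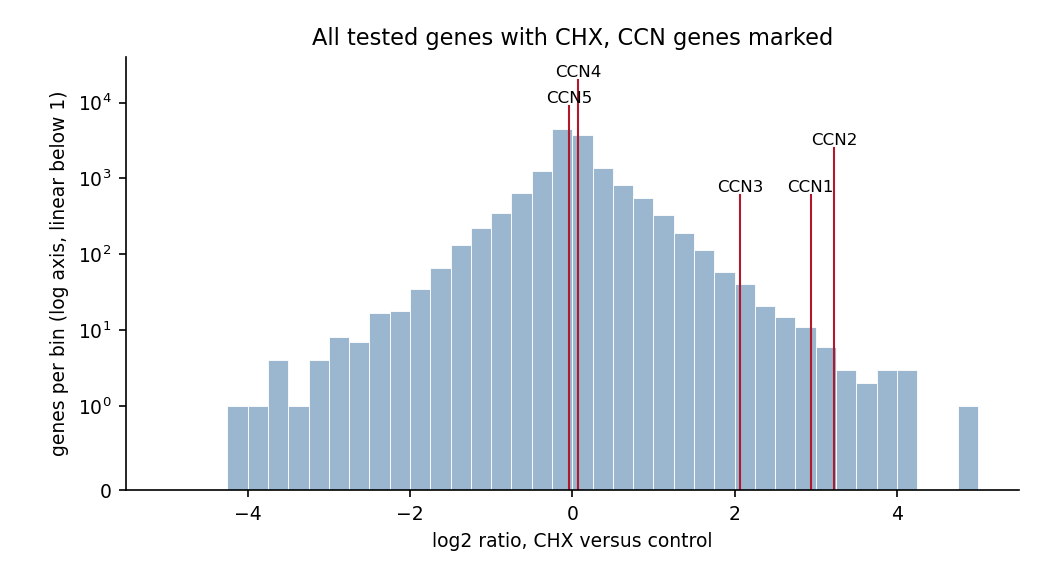
Number of genes per bin of 0.25 (vertical axis, log scale, linear below 1) against their log2 ratio in CHX versus control (horizontal axis), with the 5 CCN genes marked in red. CCN2 at 3.23, CCN1 at 2.94 and CCN3 at 2.07 lie in the upper tail, and CCN4 at 0.07 and CCN5 at −0.04 lie at the centre.

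CCN5, the member without the cysteine knot, had values between −0.24 and 0.11 on the arrays of CHX plus R1881 and between −0.14 and 0.10 on those of CHX. Its means were −0.10 ± 0.05 (limma adjusted p = 0.304) and −0.04 ± 0.11 (adjusted p = 0.677), with 95% intervals of −0.26 to 0.06 and −0.20 to 0.12. A change of the size seen for CCN3 lay outside both intervals. CCN5 was below 0 on 3 of 4 arrays in both comparisons, all of them by small amounts.

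CCN4, a target of WNT signalling, averaged 0.14 ± 0.18 with CHX plus R1881 (95% interval −0.07 to 0.35, limma adjusted p = 0.263) and 0.07 ± 0.13 with CHX (−0.14 to 0.28, adjusted p = 0.559). Its 3 probes differed. Probe 21394 had 1.04 and 0.70 in experiment 1 and −0.01 and −0.11 in experiment 2 of CHX plus R1881, and −0.13 and 0.12 in experiment 1 and 0.55 and 0.38 in experiment 2 of CHX. The high values thus stood in opposite experiments under the 2 treatments, on both dye orientations each time. Probes 22546 and 27613 stayed between −0.20 and 0.20 on these 8 arrays. Fitted alone over 27648 probes, the 3 CCN4 probes had adjusted p of 0.275, 0.571 and 0.595 with CHX plus R1881 in limma, with fitted values of 0.41, 0.06 and −0.05, and none was called. Probe 22546 carries the accession of another CCN4 transcript than the other 2 probes. Whether the transcripts or the probes differ was not tested.

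**Figure D3:**
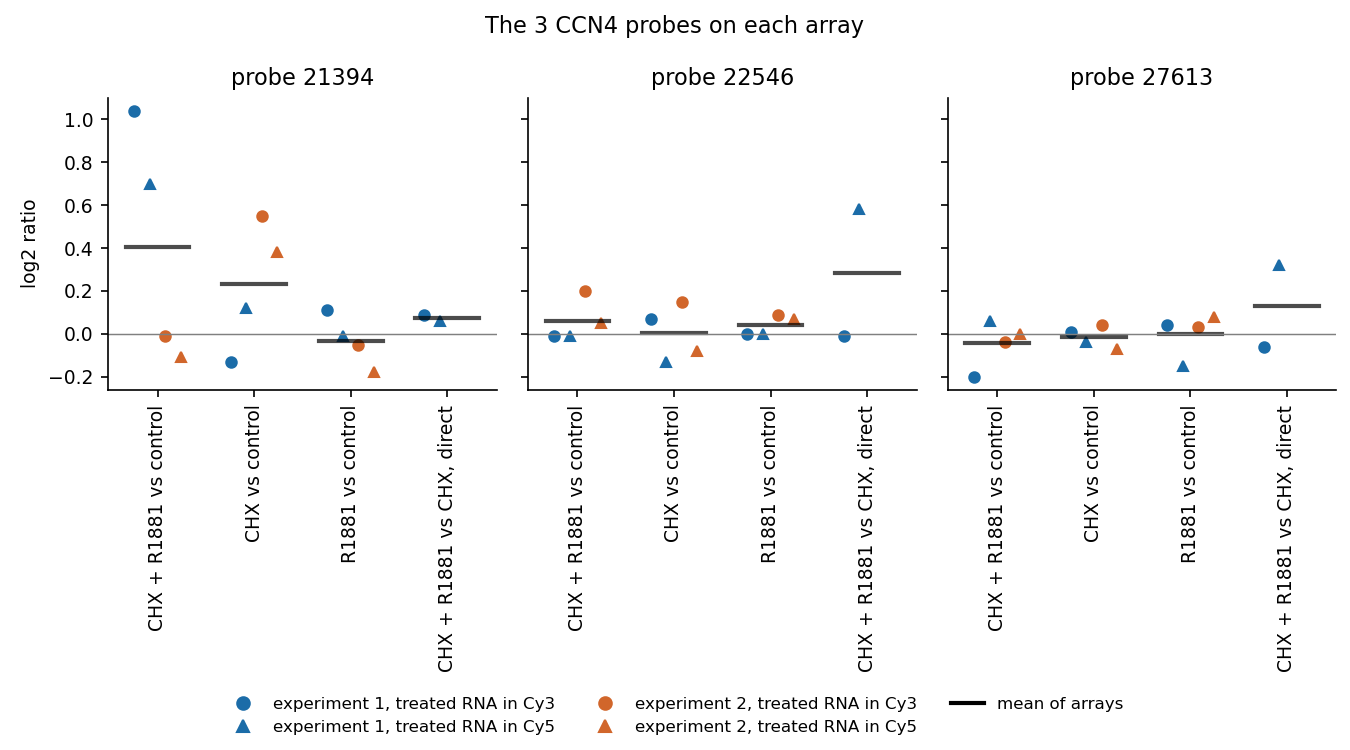
Log2 ratio (vertical axis) of the 3 CCN4 probes on each array, by comparison (horizontal axis), with the experiment in colour, the dye of the treated RNA as shape and the mean of the arrays as a black line. Probe 21394 reaches 1.04 in experiment 1 of CHX plus R1881 and 0.55 in experiment 2 of CHX, whereas the other probes stay between −0.20 and 0.20 on the 8 arrays of the CHX treatments against control.

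R1881 alone asks whether CCN transcripts were altered at 24 h of androgen treatment. No earlier time was measured, so a change that had passed by then would not be seen. None of the 5 genes was called in limma, 0 of 5 had an unadjusted p under 0.05, and 1 gene of the whole table was called (0.00688%), while 921 genes (6.34%) had an unadjusted p under 0.05. That gene was TMPRSS2, which is among the genes that set the sign, so its rise is no finding about direction. After scaling 48 of 89 calls rose, and 429 of 737 after quantile normalization. CCN1 had −0.03 and 0.05 in experiment 1 and 0.07 and −0.05 in experiment 2, with a mean of 0.01 and a 95% interval of −0.39 to 0.41. CCN2 had −0.01 and 0.15 in experiment 1 and 0.03 and −0.04 in experiment 2 (mean 0.03, interval −0.64 to 0.71). For both genes the arrays lay on either side of 0, and the intervals, which use a spread pooled over all treatments, are wide beside the range of these 4 arrays. Over all probes, the 2 orientations of an R1881 experiment correlated at r = 0.134 and 0.216. With the CHX treatments against control r was 0.788 to 0.893.

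CCN3 had −0.03 and −0.01 in experiment 1 and 0.22 and −0.02 in experiment 2 with R1881 (mean 0.04, interval −0.13 to 0.21), so that 1 array stood above the other 3. CCN4 averaged 0.00 (interval −0.21 to 0.21) and CCN5 0.07 (interval −0.10 to 0.23), and the limma adjusted p was 0.999 for each of the 5 genes. TMPRSS2, an androgen-induced protease gene, had values between 1.49 and 1.84 on the same 4 arrays, and no CCN gene had a value of that size. It is one of the genes that set the sign, so its direction is no check.

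R1881 in the presence of CHX was read as CHX plus R1881 minus CHX, a contrast in which the control cancels, and from the 2 direct arrays. CCN3 had swap averages of 2.62 and 2.51 with CHX plus R1881, against 2.13 and 2.01 with CHX, a difference of 0.50 ± 0.01 (1.41-fold, 95% interval 0.25 to 0.74). That SD subtracts experiments of the same number, and the labels do not say that a number marks a shared culture. It is therefore no measure of how well the difference was reproduced. The interval does not use this pairing. Before averaging, the arrays of the 2 treatments overlapped, since 1 CHX array reached 2.60 and 1 CHX plus R1881 array had 2.26. The limma p was 0.00267 before adjustment and 1 after it, and 0 of 14532 genes (0%) were called, with 185 (1.27%) at an unadjusted p under 0.05. CCN3 was the only one of the 5 CCN genes among those 185, and it ranked 55th from the top in this contrast. The share of 1.27% is smaller than a cut of 0.05 would give with no change in any gene. The test may thus be too cautious, and 0 calls do not show that R1881 had no effect.

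On the direct arrays CCN3 had 0.39 with CHX plus R1881 RNA in Cy3 and 0.31 with it in Cy5, above 0 on both. TMPRSS2 had 0.44 and 0.31 there. A value of at least 0.31 on both arrays was met by 28 of 14532 genes, but this cut is the lower value of CCN3 itself, so the count tests nothing. By the mean of the direct arrays CCN3 stood at percentile 98.9 of all genes. CCN2, CCN1 and CCN4 stood at 97.9, 96.4 and 95.2, and CCN5 at 5.38, so a high place was not particular to CCN3. These arrays come from 1 experiment and allow no test, and over all probes their 2 orientations correlated at r = −0.0427. The direct mean for CCN3, 0.35, had the sign of the contrast in both experiments, 0.49 and 0.50 when paired by number. The labels do not say whether the direct arrays and the arrays against control numbered 1 shared cultures.

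For CCN1 and CCN2 the direct values were above 0 on both arrays, while the contrast, paired by experiment number, differed in sign between the experiments. CCN1 had 0.21 and 0.17 on the direct arrays (mean 0.19), whereas its contrast was −0.22 in experiment 1 and 0.07 in experiment 2 (fitted −0.08, 95% interval −0.64 to 0.49). CCN2 had 0.20 and 0.29 directly (mean 0.25), and the contrast gave −0.15 and 0.29 (fitted 0.07, interval −0.89 to 1.03). CCN4 had 0.01 and 0.32, and CCN5 0.00 and −0.26, with contrasts of 0.07 (interval −0.23 to 0.36) and −0.06 (interval −0.29 to 0.17). The limma adjusted p was 1 for each gene, and the contrast of CCN2 was −0.47 without experiment 2 of CHX and 0.61 without experiment 1 of CHX. That of CCN1 was −0.52 from the arrays with the treated RNA in Cy3 and 0.37 from those with it in Cy5, so that neither sign was settled.

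Whether the R1881 response differed with CHX was tested as the response without CHX minus that with CHX. CCN3 had 0.50 with CHX and 0.04 without CHX, and the value without CHX minus that with CHX was −0.46 ± 0.07 (95% interval −0.75 to −0.16, unadjusted p = 0.00959, limma adjusted p = 1). Its SD again pairs experiments by number, which the interval does not. The other 4 genes had differences between −0.06 and 0.12 with intervals that held 0. No gene was called (0%), and 356 genes (2.45%) had an unadjusted p under 0.05. That share too is smaller than the cut would give with no change in any gene, so this test may also be too cautious. This test and the contrast with CHX use the same arrays of CHX plus R1881 and of CHX, so they are not independent, and the labels do not say whether the treatments shared control cultures.

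**Figure D4:**
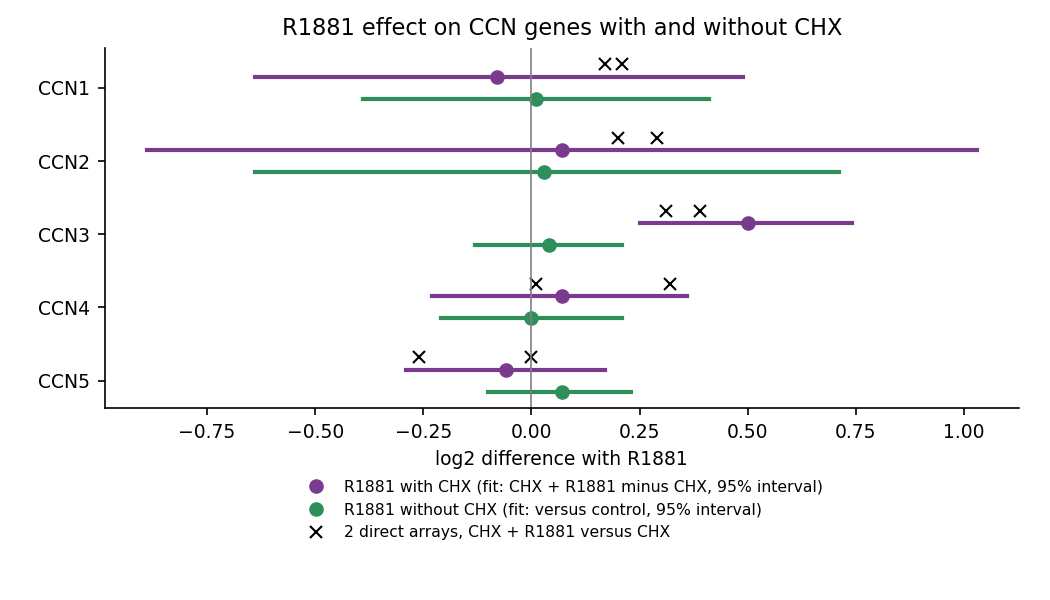
Log2 difference with R1881 (horizontal axis) for each CCN gene (vertical axis): purple points and lines are the fitted value and 95% interval in the presence of CHX, green ones those without CHX, and crosses the 2 direct arrays. The purple interval of CCN3, 0.25 to 0.74, is the one that lies wholly above 0, and its crosses at 0.39 and 0.31 fall inside it. Intervals are not adjusted for the number of genes, and 0 of 14532 genes were called in this contrast. The crosses come from 1 dye swap and allow no test.

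The genes whose ratios were nearest to those of a CCN gene were sought over the 12 arrays against control, by the root mean square difference in log2 ratio. For CCN2 the nearest was TPM4, a tropomyosin of the actin cytoskeleton, at 0.19, followed by CCN1 at 0.36 and HSPB8, a small heat shock protein, at 0.37. For CCN1 they were ENC1, an actin-associated kelch protein, at 0.21, ATF3, a stress-induced transcription factor averaged over 4 probes, at 0.29, and MYL12A, a myosin regulatory light chain, at 0.32. CCN2 was the 7th nearest gene to CCN1, out of 14531. For CCN3 they were PHF20L1, a chromatin reader, and GNAI1, an inhibitory G protein subunit, both at 0.31, and MT1G, a metallothionein, at 0.33. CCN1 and CCN2 came 236th and 454th in the order around CCN3. With 8 of the 12 arrays treated with CHX, the size of the CHX change sets this measure for the most part.

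Lists of related genes, drawn up with earlier results of these data known, were described in the same fit. SRF, MRTF and their target genes rose in 19 of 23 measured members with CHX plus R1881 and in 19 of 23 with CHX, with 0 that fell and medians of 1.34 and 1.20, against 0.01 and 0.00 over all genes. ACTA2, smooth muscle actin, had 4.66 ± 0.06 and 4.78 ± 0.23, and FHL2, a LIM domain cofactor, 3.72 ± 0.06 and 3.88 ± 0.17, both above CCN2. VCL, the adhesion protein vinculin, had 2.98 ± 0.09 and 2.80 ± 0.02, close to CCN1, and CNN2, a calponin, 2.07 ± 0.01 and 1.84 ± 0.00. Of 26 other YAP/TAZ-TEAD target genes, 7 rose and 2 fell with CHX plus R1881 (median 0.04) and 6 rose and 2 fell with CHX (median 0.09). These shares lie near the 20.8% and 20.5% of all genes that rose. EDN1, the vasoconstrictor peptide endothelin 1, had 3.54 ± 0.25 and 3.47 ± 0.11, above CCN2, and GADD45A, a growth arrest and DNA damage response gene, 2.22 ± 0.19 and 2.06 ± 0.37. AMOTL2, a scaffold that binds YAP, had 1.14 ± 0.26 and 1.14 ± 0.06, and LATS2, a kinase that restrains YAP, 1.11 ± 0.12 and 1.01 ± 0.10. All 4 were called.

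Among 18 measured Hippo pathway and TEAD genes, 5 rose and 2 fell under either treatment (medians 0.08 and −0.02), and TEAD4, a DNA-binding partner of YAP, fell at −0.81 ± 0.21 and −0.89 ± 0.20. VGLL4, first of that list by p with CHX, fell at −0.51 ± 0.08 and −0.52 ± 0.04. TEAD4 and VGLL4 are the 2 that fell. Among the 5 that rose, MAP4K4 had 0.58 ± 0.10 and 0.55 ± 0.14, and MOB1A 0.50 ± 0.17 and 0.49 ± 0.04. Of 20 CCN receptors and binding partners, 6 rose and 4 fell with CHX plus R1881 and 5 rose and 5 fell with CHX (median 0.00 in both). IGF2R, first of that list by p with CHX, fell at −0.76 ± 0.02 and −1.0 ± 0.11. The proteoglycan receptor SDC4 rose by 0.79 ± 0.02 and 0.86 ± 0.02, and the integrin subunit ITGB2 fell at −0.54 ± 0.14 and −0.54 ± 0.12. Beside these counts stand the shares of all genes, of which 20.8% rose and 16.6% fell with CHX plus R1881 and 20.5% rose and 17.5% fell with CHX. TGF-beta genes numbered 21, of which 9 rose and 1 fell with CHX plus R1881 and 9 rose and 3 fell with CHX (medians 0.13 and 0.23), with the ligand TGFB3 at 1.82 ± 0.32 and 2.11 ± 0.39. BAMBI, first of that list by p with CHX, had 1.81 ± 0.02 and 1.67 ± 0.25. Of 17 other matricellular genes 2 rose and 0 fell in each comparison (medians 0.06 and 0.02), namely SPARCL1 at 0.62 ± 0.04 and 0.54 ± 0.05 and SPARC at 0.39 ± 0.07 and 0.38 ± 0.21. With R1881 alone 0 genes of these 6 lists were called in limma, with 11 list entries at an unadjusted p under 0.05. They were 6 of 21 TGF-beta, 2 of 23 SRF and MRTF, 2 of 20 receptor and 1 of 18 Hippo genes. The other lists had 0 of 26 and 0 of 17, and over all genes 6.34% had such a p. PMEPA1 and ACTN1 of these lists are also among the androgen-induced genes that set the sign.

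**Figure D5:**
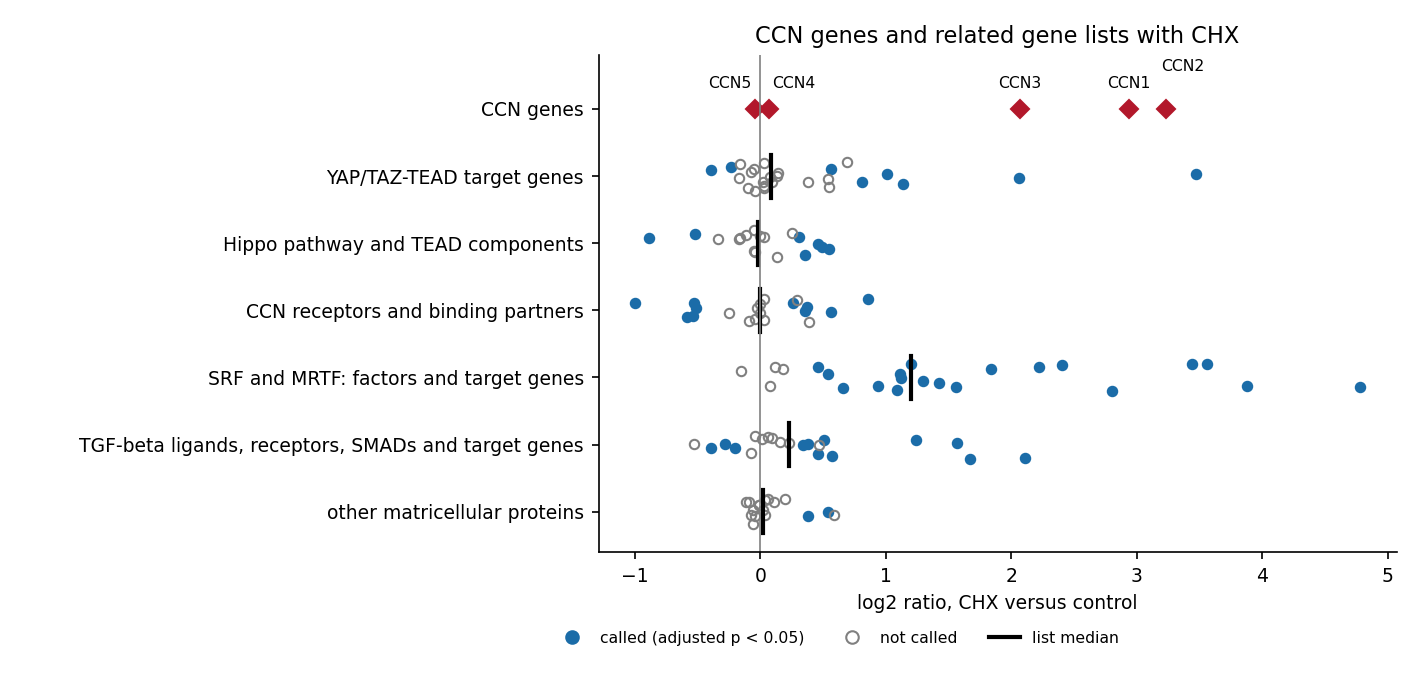
Log2 ratio in CHX versus control (horizontal axis) of the 5 CCN genes (red diamonds, of which CCN1, CCN2 and CCN3 were called) and of each measured gene of 6 related lists (rows), filled where called and open where not, with the list median as a black line. SRF and MRTF genes have a median of 1.20, and the medians of the other lists lie between −0.02 and 0.23.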

How the data were processed

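Log ratios from 14 arrays with 2 dyes were analysed. The authors deposited 1 log ratio, taken as log2, per probe and array (27648 probes, 0 missing values). Image analysis, background correction and normalization are not given in the sources used here. Every deposited log2 ratio was multiplied by −1. Probes were named by accession through a RefSeq table (14721 probes) or by the platform's symbol (2990 probes), and probes of a gene were averaged over 14532 genes. Dye swaps were averaged, and limma 3.58.1 (R 4.3.3) modelled the 6 averages with a term for each treatment (3 residual and 2.57 prior degrees of freedom). The same fit was also run on simulated log ratios with known changes and independent errors, their spread taken from the fit to these data. That run checks the calculation only. The number of experiments limits the precision. Alternatives covered scaling, dyes, probes, filters, each experiment left out, the experiment as a block, and the direct arrays in the fit. The members and gene lists were chosen with earlier results of these data known. Candidates for naming from each list were up to 4 genes with the smallest p in CHX versus control and up to 2 in R1881 versus control. The text names only a part of them, with the first by p in CHX versus control from each of the 6 related lists. Around each called CCN gene the 3 nearest genes were named.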

Additional observations from a re-analysis of the deposited data

Results flagged for a closer look

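CCN3 in R1881 versus control had 1 array apart from the others: the array of experiment 2 with the treated RNA in Cy3 had 0.22, while the other 3 had −0.01, −0.02 and −0.03. The gap took up more of the range of the 4 arrays than the limit for a stray value allows. This was 1 of 15 groups of 4 arrays examined, and with independent values chance alone would flag about 1 group in 20. The 2 arrays of a dye swap share RNA extracts, so that rate need not hold here. The cause was not tested.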

How the results depend on the processing

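The number of CCN genes called was the same under each of the 19 alternatives in the 5 contrasts, 95 of 95 comparisons. CCN1, CCN2 and CCN3 were called under all 18 alternatives that give a value per gene, with CHX plus R1881 (2.09 to 3.26, 2.39 to 3.61 and 1.84 to 2.78) and with CHX (1.99 to 3.26, 2.19 to 3.77 and 1.39 to 2.28), the lowest values after scaling, which shrinks the arrays with CHX by construction. Scaling and quantile normalization likewise widen the arrays of R1881 alone. The CCN3 difference with R1881 in the presence of CHX stayed between 0.41 and 0.56 (adjusted p 0.602 to 1). Those of CCN1 and CCN2 changed sign, as given with their values. CCN4 was removed by the filter on small ratios. Over all genes, the count with R1881 was 172 from single arrays, 2 with the experiment as a block, 89 after scaling, 737 after quantile normalization, 2 with probe medians, 2 with the filter, 28 with the direct arrays, 2 for single probes, and 0 to 1 with an experiment left out (0 without either experiment of R1881 or of CHX plus R1881). With CHX plus R1881 it was 3506 after quantile normalization, 2986 with a 1.5-fold limit and 3402 to 5578 with an experiment left out (5443 in the fit as reported; 3402 without experiment 1 of CHX plus R1881). With CHX it was 3430 and 2985 (5519 as reported). R1881 in the presence of CHX gave 2 from single arrays, and the difference between R1881 responses gave 2 from single arrays, 1 after scaling, 1 after quantile normalization and 2 with the direct arrays. Experiment deviations of the treatments correlated at 0.166 to 0.564 over genes, and the labels do not say that a number marks a shared culture. Signal over background is unknown.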

Other observations

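CCN6 (older symbol WISP3), the remaining member of the family, was not called in limma with CHX plus R1881 (0.21 ± 0.18, adjusted p = 0.159), with CHX (0.12 ± 0.21, adjusted p = 0.416) or with R1881 (0.05 ± 0.03, adjusted p = 0.999). Its single probe had 0.42 and 0.26 in experiment 1 and 0.10 and 0.06 in experiment 2 of CHX plus R1881, and −0.01 and −0.06 in experiment 1 and 0.24 and 0.30 in experiment 2 of CHX. The higher experiment was thus the first with CHX plus R1881 and the second with CHX, as for CCN4 probe 21394, a likeness noticed after the values were seen. Over all genes the deviations of same-numbered experiments of CHX and of CHX plus R1881 from their treatment means correlated at 0.564. The CCN6 probe has number 21396 in the table.

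The CCN1 and CCN2 probes also have close numbers in the table, 12183 and 12181. The probe between them, named UFL1, had values from −0.05 to 0.44 on the 8 arrays of CHX treatments, and those on the outer sides had −0.22 to 0.07 (unnamed, beside CCN1) and −0.40 to −0.04 (CRIPT, beside CCN2). The probes next to that of CCN3 were named STRAP, with −1.36 to −0.58, and GHR, with −1.01 to 0.31. High ratios were not shared by the probes numbered next to these 3 genes.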
